A study of Mus musculus with 17 samples.

Results

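The nuclear genes for the proteins of the mitochondrial ribosome were examined in mouse hearts 5 days after myocardial infarction (MI). They were chosen by symbol: each protein-coding gene whose symbol begins with Mrpl or Mrps followed by a digit was a member. This gave 78 of the 31647 genes or merged gene groups in the count table, 49 named for the large subunit (Mrpl) and 29 for the small subunit (Mrps). All animals were male wild-type C57BL/6J mice aged 8 to 11 weeks. In 9 mice the left anterior descending coronary artery was ligated permanently and RNA was taken from the infarct zone (IZ), and in 8 sham-operated mice RNA was taken from the left ventricle (LV). Both groups were collected 5 days after surgery. The infarct zone was compared with a left ventricle, so ligation and the region sampled changed together.

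Mitochondrial ribosomes translate the small set of proteins encoded by mitochondrial DNA, all of them core subunits of the respiratory chain and ATP synthase. Their RNA is transcribed inside the organelle, while their proteins are made in the cytosol from nuclear genes and imported. The small subunit decodes the mRNA, and the large subunit joins amino acids and releases the nascent chain through an exit tunnel near the inner membrane. Cardiomyocytes are packed with mitochondria, and inherited defects of several of these proteins, among them MRPL3, MRPL44 and MRPS22, are known causes of cardiomyopathy in humans.

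Libraries were made by massive analysis of cDNA ends, which sequences the 3′ end of polyadenylated transcripts and counts molecules by identifiers. The 17 libraries held 1237675 to 4738307 counts. Levels are given as CPM, counts per 1e6 of a library size scaled by TMM, a trimmed mean of gene-wise ratios between libraries. Since each transcript was counted at its 3′ end, CPM was not divided by length. One library stood apart: in IZ replicate 1 the summed CPM of 10 cardiomyocyte markers was 31845, against 3139 to 7494 in the other 8 IZ libraries and 70325 to 83418 in sham. The tissue labels matched these markers, of which 10 of 10 were at least detected in every library and 10 of 10 fell in the IZ.

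The members as a whole were lower in the IZ. Their summed level was 5919, 6706 and 7485 CPM (lowest, median and highest of the sham libraries) against 2504, 2657 and 3693 CPM in the IZ. No IZ library reached the lowest sham library, and the highest IZ value belonged to replicate 1. The means were 6708 ± 628 CPM (SD, n = 8) and 2812 ± 374 CPM (SD, n = 9), the latter 2702 ± 188 CPM (SD, n = 8) without IZ replicate 1.

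The unscaled share of all counts differed far less. The members took 0.387%, 0.446% and 0.537% of the counts in sham (lowest, median, highest) and 0.376%, 0.388% and 0.427% in the IZ, so the ranges overlapped. Mitochondrially encoded features took 22.9% to 32.4% of the counts in sham and 4.22% to 19.5% in the IZ. When these were left out of the denominator, the members' share was 0.570% to 0.698% in sham and 0.394% to 0.482% in the IZ, with no overlap. Thus the size of the decrease rested on the scaling, and every fold change below is on the TMM scale unless another is named.

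**Figure D1:**
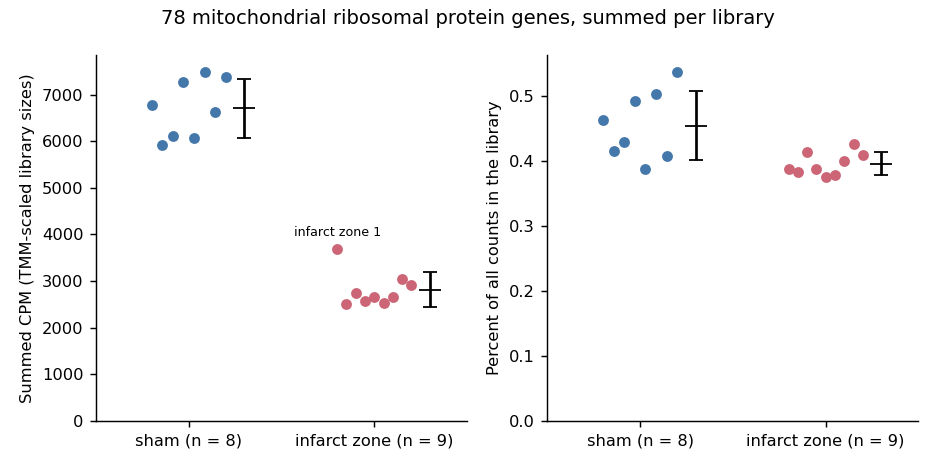
The summed level of the 78 members is plotted for each library (points) with the mean ± SD at the right of each group, as CPM on TMM-scaled library sizes (left) and as a percent of all counts in the library (right). On the left the highest IZ library, replicate 1 at 3693 CPM, lies below the lowest sham library at 5919 CPM, while on the right the groups overlap between 0.387% and 0.427%.

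Of the 78 members, 77 had enough counts to be tested, and 75 of them were called lower in the IZ by the quasi-likelihood test of edgeR, with p-values adjusted over 12301 genes by the Benjamini-Hochberg method. Of all genes tested, 33.1% were called lower and 36.3% higher. By edgeR 0 members were called higher, and 0 were higher at an unadjusted p under 0.05. The Wald test of DESeq2 also called 75 members lower and 0 higher. The exceptions in edgeR's test were Mrpl20 and Mrpl52.

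The median log2 fold change of the members was -1.28, or 2.43-fold lower, with an interquartile range of -1.58 to -0.92, beside 0.05 over all genes tested. A called decrease of at least 2-fold was found for 54 members, beside 2245 of the 12266 tested genes that matched the annotation. For 56 of the 77 every IZ library lay below every sham library, which held for 16.5% of all genes tested. Scaled by total counts alone, 34 members were called lower and 16 higher with a median of -0.22. On that scale 1534 of all 12301 genes tested were called lower and 9176 higher. The median of all genes lay 1.07 higher there than on the TMM scale.

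Markers of other cell types also differed between the groups, and most of those called were higher in the IZ, unlike the members. Among fixed marker lists, 7 of 8 fibroblast, 8 of 8 macrophage and 6 of 6 mitotic genes were called higher in the IZ, and 2 of 6 endothelial genes lower. Of 5 T and B cell markers 1 was tested, Cd79b, which was called higher, and no marker was at 0 in all libraries of a group. Summed fibroblast markers ran from 1527 to 2953 CPM in sham and from 12565 to 20499 CPM in the IZ. Macrophage markers ran from 367 to 528 CPM in sham and from 1909 to 5164 CPM in the IZ. Endothelial markers ran from 441 to 874 CPM and from 331 to 538 CPM, mitotic markers from 4.97 to 16.5 CPM and from 94.4 to 196 CPM, and lymphocyte markers from 0.552 to 3.36 CPM and from 4.31 to 16.4 CPM. The part of these changes in the members' decrease was not tested, and in bulk tissue fewer cells of a type and less RNA per cell cannot be told apart.

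Genes of both subunits were lower in the IZ. Large subunit members summed to 4122, 4658 and 5285 CPM in sham (lowest, median, highest) and to 1799, 1909 and 2596 CPM in the IZ. Small subunit members summed to 1797, 2047 and 2200 CPM in sham and to 704, 764 and 1097 CPM in the IZ. In both subunits the groups were apart. The test called 46 of 48 large subunit genes lower, with a median log2 fold change of -1.31, and 29 of 29 small subunit genes lower, with a median of -1.23. The medians differed by -0.08 (large minus small), a difference that was not tested.

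Small subunit genes took 29.4% to 31.8% of the members' CPM in sham and 27.7% to 29.7% in the IZ. The ranges touched through IZ replicate 1, at 29.7%, and without it the IZ libraries ran from 27.7% to 29.3%, all below sham. This share depends on single abundant genes: Mrpl52, of the large subunit, took a median of 2.37% of the members' CPM in sham and 6.97% in the IZ. Its part in the lower share was not tested. The median log2 fold changes went the other way, at -1.31 for large and -1.23 for small subunit genes. Scaled by total counts alone, the medians were -0.24 and -0.17, with 12 large and 4 small subunit genes called higher. Symbols do not fully match the structure: the proteins of Mrps30 and Mrps18a sit in the large subunit, and that of Mrps36 is now known as a part of the 2-oxoglutarate dehydrogenase complex. Sorted by structure, the medians were -1.35 over 50 large and -1.20 over 26 small subunit genes, a difference of -0.15.

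**Figure D2:**
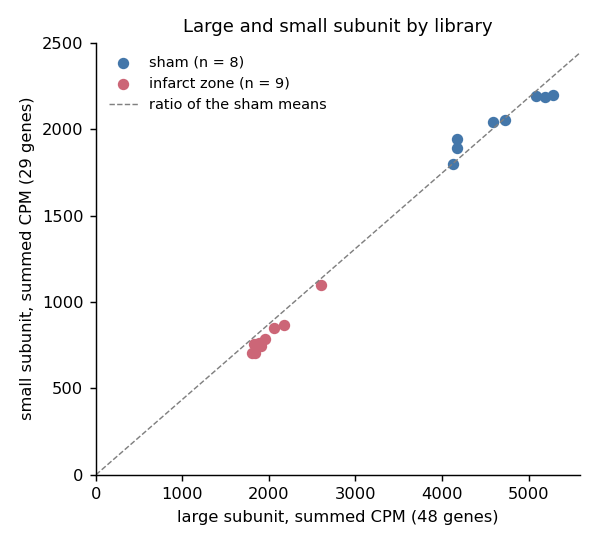
Each point is a library, with the summed CPM (TMM-scaled) of 48 large subunit genes on the x axis and of 29 small subunit genes on the y axis; the dashed line is the ratio of the sham means. Sham libraries lie at 4122 to 5285 and 1797 to 2200 CPM, IZ libraries at 1799 to 2596 and 704 to 1097 CPM and close to the same line, mostly just under it.

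Position within the ribosome and evolutionary class gave medians within a narrow band. The 46 genes tested whose proteins were classed as having a bacterial counterpart had a median log2 fold change of -1.20. The 30 classed as specific to mitochondria had one of -1.36. Mrps18a and Mrps18b were put in the latter class, although they are relatives of the same bacterial protein as Mrps18c. The 4 tested genes of the stalk, which recruits translation factors, had a median of -1.01. The 6 around the exit tunnel had a median of -1.35. The 4 of the central protuberance, which contacts the other subunit, had a median of -1.04. All 14 genes of these places that were tested were called lower, and scaled by total counts alone 5 of them were called higher. The differences between these classes were not tested.

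**Figure D3:**
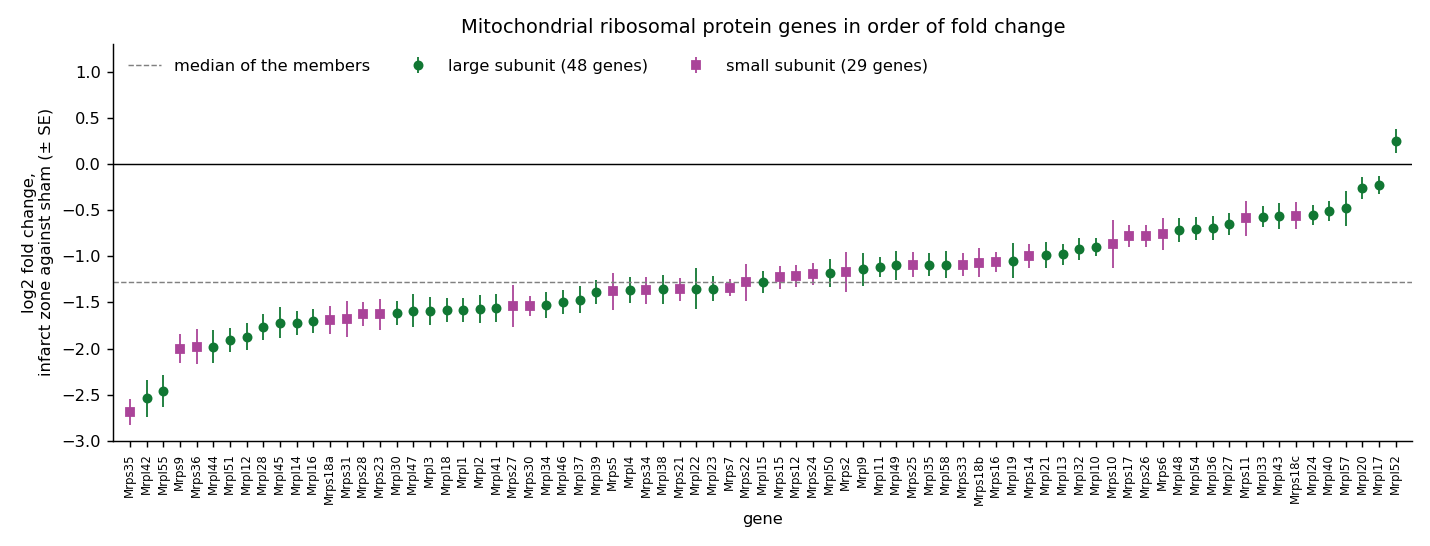
The log2 fold change (IZ against sham, TMM scale, ± SE) of the 77 tested members is plotted in order, with large subunit genes as circles and small subunit genes as squares. The values run from -2.69 for Mrps35 to 0.25 for Mrpl52 around a median of -1.28 (dashed line). Scaled by total counts alone, 16 members were called higher, beside 9176 of all 12301 genes tested.

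The strongest decreases were those of 3 genes that stood below the rest. Mrps35 (chr6:147042764-147073991, GRCm38, plus strand) encodes a mitochondria-specific protein of the small subunit. It was at 111, 153 and 189 CPM in sham (lowest, median, highest) and at 17.8, 23.1 and 34.1 CPM in the IZ. Every IZ library lay far under every sham library, and the log2 fold change was -2.69 ± 0.14 (SE, edgeR, adjusted p = 4.6e-13), or 6.44-fold lower. Mrpl42 (chr10:95480805-95501940, minus strand), another mitochondria-specific protein, had the highest mean of all members in sham. It was at 262, 340 and 403 CPM in sham and at 37.1, 47.3 and 117 CPM in the IZ, where 117 CPM belonged to replicate 1 and the next library reached 69.6 CPM. Its log2 fold change was -2.54 ± 0.20 (adjusted p = 1.16e-10, edgeR). Mrpl55 (chr11:59202486-59206134, plus strand), of the large subunit, was at 121, 166 and 193 CPM in sham and at 19.4, 27.8 and 57.8 CPM in the IZ. Its groups did not overlap either, at -2.46 ± 0.17 (adjusted p = 1.54e-11, edgeR).

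The next 5 genes in order fell about 4-fold. Mrps9, a core protein of the small subunit head, was at 84.0, 99.2 and 108 CPM in sham and at 14.0, 21.2 and 48.5 CPM in the IZ (log2 fold change -2.0 ± 0.16). Mrpl44, a large subunit protein that resembles an RNase, was at 49.9, 56.6 and 68.7 CPM in sham and at 5.91, 14.5 and 28.4 CPM in the IZ (-1.98 ± 0.18). Mrpl51, a mitochondria-specific large subunit protein, was at 193, 233 and 269 CPM in sham and at 50.7, 58.1 and 93.0 CPM in the IZ (-1.91 ± 0.13). In each of these the highest IZ value was that of replicate 1, and no IZ library reached sham. Mrpl12, the stalk protein that also binds the mitochondrial RNA polymerase, was at 196, 259 and 285 CPM in sham and at 49.6, 63.9 and 118 CPM in the IZ (-1.87 ± 0.15). Mrps36 was at 40.8, 60.3 and 72.8 CPM in sham and at 9.13, 14.0 and 30.2 CPM in the IZ (-1.98 ± 0.19). Both were again apart between the groups, and all 5 genes were called lower by edgeR.

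Replicate 1 was the highest IZ library for 49 of the 77 members, or 63.6%, and for 25.4% of all genes tested. Among the 8 members with the strongest decrease it was the highest in 8, and among the 8 at the other end in 2. Without it the median of the members was -1.37, with 76 called lower and 1, Mrpl52, called higher.

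At the other end of the order the change was small or not called. Mrpl52 (chr14:54426909-54429756, plus strand), a mitochondria-specific large subunit protein, was at 101, 160 and 204 CPM in sham and at 137, 181 and 236 CPM in the IZ. The groups overlapped broadly, with 3 of 9 IZ libraries above every sham library, at 0.25 ± 0.13 (adjusted p = 0.0907, edgeR). It was called higher without sham replicate 8 (0.30) and without IZ replicate 1 (0.26), as well as on the upper quartile and the total count scales. Mrpl20 (chr4:155802878-155809975, plus strand), a core protein of the large subunit, was at 65.7, 98.4 and 132 CPM in sham and at 66.4, 80.8 and 90.2 CPM in the IZ (-0.26 ± 0.12, adjusted p = 0.0578, edgeR). All its IZ libraries lay within the sham range. Mrpl17 (chr7:105803206-105811099, minus strand), which lines the exit tunnel, was at 45.0, 53.1 and 67.7 CPM in sham and at 42.5, 46.1 and 51.0 CPM in the IZ. It passed the test at -0.23 ± 0.10 (adjusted p = 0.0353, edgeR). Of 26 alternative fits only 14 called it, and these include total count scaling, where it was called higher (0.84).

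The other 5 of the upper end were called lower by 1.40- to 1.47-fold. Mrpl57 was at 17.3, 51.3 and 71.0 CPM in sham and at 18.8, 32.1 and 40.2 CPM in the IZ (-0.48 ± 0.19, adjusted p = 0.0302, edgeR), with every IZ library inside the sham range. Mrpl40, of the central protuberance, was at 35.0, 42.9 and 47.8 CPM against 24.7, 29.5 and 35.8 CPM (-0.51 ± 0.11). Mrpl24, near the tunnel, was at 61.6, 85.6 and 94.8 CPM against 47.1, 54.4 and 74.2 CPM (-0.55 ± 0.11). For Mrpl40 and Mrpl24 most IZ libraries, 8 and 6 of 9, lay below all sham libraries. Mrpl43, mitochondria-specific, was at 45.9, 54.6 and 74.0 CPM against 27.8, 37.1 and 55.3 CPM (-0.56 ± 0.14). Mrps18c, one of 3 relatives of a bacterial small subunit protein, was at 27.7, 40.7 and 66.7 CPM against 21.6, 29.2 and 32.5 CPM (-0.56 ± 0.15), and its gene overlaps another on the same strand. Scaled by total counts alone these 5 genes turned to values between 0.50 and 0.59.

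**Figure D4:**
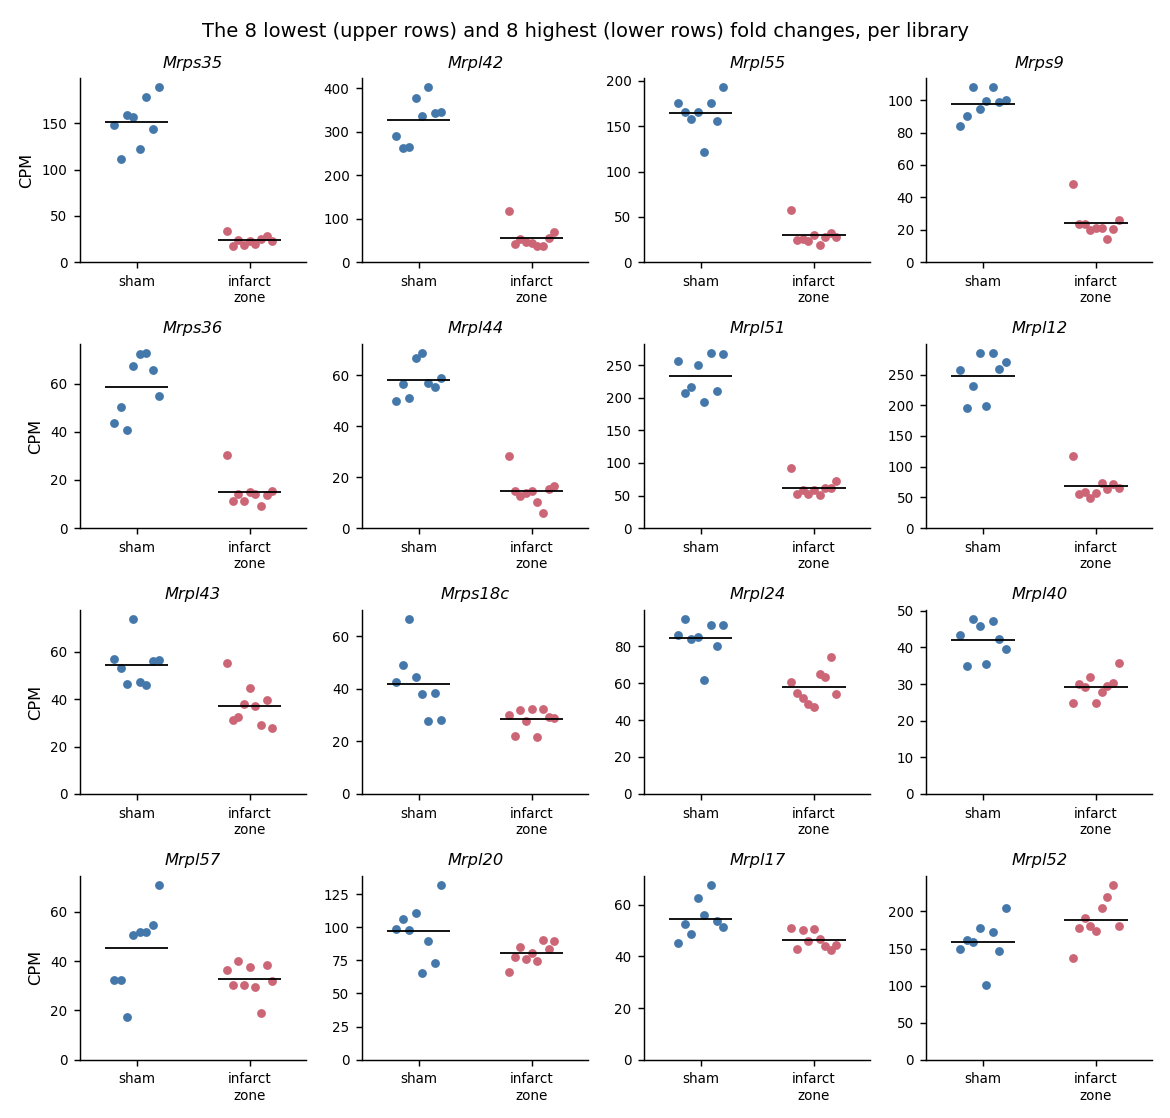
CPM (TMM-scaled, y axes from 0) is plotted per library for the 8 members with the lowest fold change (upper 2 rows) and the 8 with the highest (lower 2 rows), with a line at each group mean. The groups are apart in all 8 upper panels and overlap in the 8 lower ones. Scaled by total counts alone, the lower 8 were called higher, beside 9176 of all 12301 genes tested.

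The promoters of these genes are known for sites of a few widely used factors: NRF1, the ETS factor GABP (NRF2) and YY1. RefSeq windows from 250 bases before to 50 bases after the start site (GRCm38.p6) were matched for 69 of the 78 members. They were searched on both strands, overlaps between motifs allowed. The NRF1 motif GCGCANGCG was found in 16 members (23.2%, against 9.63% of 17492 promoters) and the ETS motif CCGGAAG in 26 (37.7% against 12.9%). The YY1 motif AAGATGGCG was found in 8 (11.6% against 2.14%) and the SP1 motif GGGCGGG in 29 (42.0% against 36.9%). Of the 69 members 42 (60.9%) held at least 1 of the first 3 motifs, against 21.8% of all promoters. The median log2 fold changes with and without each motif were -1.36 and -1.20 for NRF1, -1.09 and -1.35 for ETS, and -1.33 and -1.22 for YY1. A match of letters is a description of the sequence and does not show that a factor was bound.

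Promoters are shown for members at both ends of the order, with the NRF1, ETS and YY1 motifs on either strand in capitals and SP1 motifs left unmarked, each written 5′ to 3′ on the strand of its gene. Mrps35 had no match in the RefSeq table. Mrpl42 is the most abundant member in sham and has the lowest fold change of those with an entry (chr10:95501900-95502199, minus strand). It holds the YY1 motif at 28 from the start site. Mrpl12 holds the NRF1 motif at -80 (chr11:120484387-120484686, plus strand). Mrpl17 holds an ETS motif and NRF1 motifs at -49 and -11 (chr7:105811038-105811337, minus strand). Mrpl52 holds ETS motifs at -47 and 3 (chr14:54426659-54426958, plus strand).
Mrpl42: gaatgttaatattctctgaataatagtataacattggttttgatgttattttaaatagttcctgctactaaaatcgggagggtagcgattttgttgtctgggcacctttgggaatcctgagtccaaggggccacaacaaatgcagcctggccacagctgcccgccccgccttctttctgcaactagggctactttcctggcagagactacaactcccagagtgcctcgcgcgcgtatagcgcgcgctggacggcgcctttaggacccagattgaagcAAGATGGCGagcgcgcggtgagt
Mrpl12: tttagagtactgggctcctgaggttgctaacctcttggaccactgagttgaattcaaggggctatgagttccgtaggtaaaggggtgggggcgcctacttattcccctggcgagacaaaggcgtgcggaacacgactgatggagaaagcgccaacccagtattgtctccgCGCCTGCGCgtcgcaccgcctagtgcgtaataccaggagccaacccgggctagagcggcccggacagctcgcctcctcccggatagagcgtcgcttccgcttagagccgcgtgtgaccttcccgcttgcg
Mrpl17: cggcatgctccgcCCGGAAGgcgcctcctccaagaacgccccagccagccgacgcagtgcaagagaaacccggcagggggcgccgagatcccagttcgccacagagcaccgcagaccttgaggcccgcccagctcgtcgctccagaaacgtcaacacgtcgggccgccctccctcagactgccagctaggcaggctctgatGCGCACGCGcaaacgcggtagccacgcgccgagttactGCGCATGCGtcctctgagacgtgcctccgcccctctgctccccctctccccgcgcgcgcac
Mrpl52: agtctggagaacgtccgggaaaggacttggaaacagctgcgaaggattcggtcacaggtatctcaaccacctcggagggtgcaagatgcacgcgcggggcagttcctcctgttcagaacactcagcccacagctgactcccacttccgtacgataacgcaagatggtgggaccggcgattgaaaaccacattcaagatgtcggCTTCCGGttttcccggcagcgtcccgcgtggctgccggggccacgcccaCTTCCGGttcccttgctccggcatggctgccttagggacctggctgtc

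Other members of known particular function, beyond those already described, fell between these ends. Mrps12, which sets decoding accuracy, was at 57.4, 82.1 and 91.8 CPM in sham and at 27.6, 32.3 and 40.5 CPM in the IZ (-1.21 ± 0.12). Mrps22, of the small subunit, was among the least abundant, at 13.3, 22.3 and 26.0 CPM against 2.69, 8.70 and 11.8 CPM (-1.28 ± 0.20). Mrpl3, a core protein of the large subunit, was at 66.7, 86.8 and 100 CPM against 21.9, 23.6 and 51.0 CPM (-1.59 ± 0.15), with a gene overlapping it on the same strand. The groups were apart for each of these. Mrpl45, which anchors the tunnel exit to the inner membrane, was at 78.1, 87.6 and 120 CPM against 15.5, 26.4 and 49.9 CPM (-1.72 ± 0.17). Mrpl10, the base of the stalk, was at 42.4, 56.0 and 67.9 CPM against 24.1, 30.6 and 33.2 CPM (-0.90 ± 0.10), and turned to 0.17 on the total count scale. Mrpl58, a peptidyl-tRNA hydrolase that rescues stalled ribosomes, was at 47.3, 59.2 and 77.5 CPM against 18.3, 28.4 and 40.9 CPM (-1.09 ± 0.15). These genes too showed no overlap, and all 6 were called lower by edgeR.

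The remaining members of the naming rule were called lower as well. Mrps30 and Mrps18a had log2 fold changes of -1.54 ± 0.11 and -1.69 ± 0.15. Mrps18b, at -1.07 ± 0.16, was 0.01 when scaled by total counts. Mrpl30 and Mrpl33 were, with Mrpl42 and Mrpl12, the 4 members of highest mean CPM in sham. Mrpl30 was at 232, 292 and 339 CPM in sham and at 77.4, 86.2 and 137 CPM in the IZ (-1.61 ± 0.13). Mrpl33 was at 201, 243 and 320 CPM against 150, 165 and 196 CPM (-0.57 ± 0.11), and turned to 0.49 on the total count scale. Both were apart between the groups, though in Mrpl33 narrowly. Across the 77 members the sham level and the log2 fold change had a Spearman correlation of -0.38, a description over genes that share the same libraries. The sham level enters both measures, which by itself favours a negative value, so no relation is read from it.

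A second fit asked which members changed more or less than the whole, by using the summed counts of the 78 members as the library size, so that no scaling over other genes entered. Of the 77 members 23 were called lower and 20 higher relative to the sum, beside 10.4% and 78.6% of all genes tested. Both subunits contributed to each side, with 16 large and 7 small subunit genes lower and 15 large and 5 small subunit genes higher. The lowest were Mrps35 (-1.43 ± 0.11), Mrpl42 (-1.32 ± 0.14), Mrpl55 (-1.23 ± 0.13), Mrps9 (-0.78 ± 0.14) and Mrps36 (-0.75 ± 0.16), all with adjusted p of at most 0.000121 by edgeR. The highest were Mrpl52 (1.54 ± 0.15), Mrpl17 (1.03 ± 0.12), Mrpl20 (1.01 ± 0.14), Mrpl57 (0.79 ± 0.18) and Mrpl40 (0.76 ± 0.13), with adjusted p of at most 0.000239. The members thus did not keep a fixed ratio to each other.

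The share of the 2 genes at the ends was apart in each library. Mrpl52 took 1.66%, 2.37% and 2.77% of the members' CPM in sham (lowest, median, highest) and 3.70%, 6.97% and 8.29% in the IZ, with the lowest IZ value in replicate 1. Mrps35 took 1.87%, 2.18% and 2.60% in sham and 0.710%, 0.865% and 0.950% in the IZ.

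Some counts could not be assigned to 1 gene with certainty. Mrpl53 (chr6:83109040-83109939, plus strand) had 0 counts in all 17 libraries, a count that allows up to 3 in each. Another protein-coding gene on the same strand, Gm42688, overlaps it and matches its last 500 bases in full. Gm42688, named here after its values were seen, was at 75.3, 115 and 156 CPM in sham and at 36.7, 48.2 and 57.1 CPM in the IZ (-1.27 ± 0.14, adjusted p = 3.49e-08, edgeR). Its groups were apart, and no value is given for Mrpl53 itself.

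Near-identical sequences elsewhere in the genome were found for 10 further members, all of them processed pseudogenes. The copy Mrpl23-ps1 matched Mrpl23 at 100% over 498 bases and held 4554 counts against 1234 of the gene. Mrpl23 had a log2 fold change of -1.35 and its copy one of -1.07, and summed they gave -1.13 ± 0.14. Mrps36 summed with Mrps36-ps1 and Mrps36-ps2 gave -2.07 ± 0.19, and Mrps21 summed with Gm6181 gave -1.33 ± 0.13. Mrpl42 with its copy Gm6419 gave -2.54 ± 0.20. With all such copies added to their members, 76 of 77 members were called lower and 0 higher by edgeR. Mrpl53 summed with Gm42688 in the same fit gave -1.27 ± 0.14.

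Mrpl46 and Mrps11 form a head-to-head pair on chromosome 7, looked at after their values were seen. Their annotated genes overlap by 413 bases on opposite strands, and their promoter windows share 141 bases (chr7:78783040-78783180). The Mrps11 window (chr7:78782881-78783180, plus strand) holds the YY1 motif at -108, outside the shared bases, and the Mrpl46 window (chr7:78783040-78783339, minus strand) holds none of the NRF1, ETS and YY1 motifs.
Mrps11: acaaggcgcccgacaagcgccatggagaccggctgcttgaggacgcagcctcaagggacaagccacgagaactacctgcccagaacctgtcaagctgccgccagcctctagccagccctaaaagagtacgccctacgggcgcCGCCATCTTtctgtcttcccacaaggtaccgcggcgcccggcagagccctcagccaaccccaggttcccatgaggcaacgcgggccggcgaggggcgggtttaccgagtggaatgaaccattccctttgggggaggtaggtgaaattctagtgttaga
Mrpl46: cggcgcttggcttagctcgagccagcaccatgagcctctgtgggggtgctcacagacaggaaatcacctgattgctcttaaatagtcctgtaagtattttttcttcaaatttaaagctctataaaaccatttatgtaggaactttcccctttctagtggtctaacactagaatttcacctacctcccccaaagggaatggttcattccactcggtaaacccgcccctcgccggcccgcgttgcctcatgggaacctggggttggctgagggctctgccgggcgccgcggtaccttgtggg
Mrpl46, of the central protuberance, was at 44.6, 50.8 and 63.0 CPM in sham and at 12.9, 19.4 and 24.4 CPM in the IZ (-1.50 ± 0.13), with no overlap. Mrps11, of the small subunit, was at 15.5, 31.7 and 39.2 CPM in sham and at 11.2, 18.2 and 26.4 CPM in the IZ (-0.59 ± 0.19), and 8 of 9 IZ libraries lay within the sham range. Relative to the summed members Mrps11 was higher (0.69 ± 0.19, adjusted p = 0.00139, edgeR), while Mrpl46 was at -0.25 ± 0.12 (adjusted p = 0.0557, edgeR). The difference between the 2 genes was not tested itself.

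Ribosomal proteins that carry other names moved as the members did. All 5 were called lower with a median of -1.28: Ptcd3 (-2.19 ± 0.21), Gadd45gip1 (-1.38 ± 0.12), Dap3 (-1.28 ± 0.11), Chchd1 (-1.18 ± 0.12) and Aurkaip1 (-1.01 ± 0.10). For each the groups were apart. The ribosomal RNAs are encoded by mitochondrial DNA and were seen here through their adenylated ends. mt-Rnr1, of the small subunit, was at 4147, 5445 and 8673 CPM in sham and at 398, 676 and 3966 CPM in the IZ (-2.52 ± 0.38). mt-Rnr2, of the large subunit, was at 10470, 17268 and 21143 CPM in sham and at 909, 1443 and 9865 CPM in the IZ (-2.77 ± 0.42). In both the highest IZ library was replicate 1, and the next reached 855 and 2092 CPM.

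The wider machinery of mitochondrial translation fell in most of its parts. Across 75 tested genes of 80, the 5 proteins above included, 65 were called lower and 1 higher by edgeR, with a median of -1.17, and scaled by total counts alone 21 were called lower and 15 higher. With 9 nuclear transcription factors and coactivators of mitochondrial genes added, 69 of 84 were called lower and 4 higher, with a median of -1.05. Of 12 tested translation factors 10 were lower, from Tufm, the elongation factor that brings tRNAs to the ribosome (-1.99 ± 0.19), to Mtfmt, which formylates the initiator tRNA and was not called (0.34 ± 0.23). Of 25 genes of assembly and rRNA modification 21 were lower, and Mrm3, an rRNA methyltransferase, was the lowest at -2.21 ± 0.24. The highest of them, Mpv17l2, was not called (0.05 ± 0.19).

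Of 21 genes that charge tRNAs 19 were lower, with Gatb, of the glutamyl-tRNA amidotransferase, at -2.10 ± 0.24. The exception called higher was Gars, a synthetase that serves cytosol and mitochondria alike (0.51 ± 0.12, adjusted p = 0.00077, edgeR), at 43.0, 61.8 and 80.1 CPM in sham and at 68.2, 92.8 and 102 CPM in the IZ. Of 9 genes of mitochondrial DNA transcription and RNA stability 8 were lower, from Lrpprc, which stabilises mitochondrial mRNAs (-2.20 ± 0.20), to Pnpt1, not called (-0.30 ± 0.17). Of 3 genes that insert the new proteins into the membrane, Letm1 (-1.72 ± 0.14) and Oxa1l (-1.38 ± 0.15) were lower, and Cox18 was not called (-0.12 ± 0.20).

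Nuclear factors that act on mitochondrial genes did not move one way. The lowest was Ppargc1a, the coactivator PGC-1α, at 38.4, 56.7 and 86.2 CPM in sham and at 1.76, 3.01 and 24.8 CPM in the IZ (-3.55 ± 0.40). The IZ value of 24.8 CPM was that of replicate 1, and the next library reached 6.73 CPM. The highest was Myc, at 1.10, 2.27 and 5.64 CPM in sham and at 4.31, 9.72 and 10.7 CPM in the IZ (1.72 ± 0.29). The other called genes, named after their values were seen, were Ppargc1b (-2.83 ± 0.42), Esrra (-2.20 ± 0.15) and Gabpa (-0.75 ± 0.16), which were lower, and Pprc1 (1.08 ± 0.24) and Gabpb1 (0.43 ± 0.18), which were higher. Nrf1 (0.12 ± 0.17) and Yy1 (0.01 ± 0.09) were not called by edgeR, and scaled by total counts alone 5 of these 9 genes were called higher and 3 lower.

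The members sat between the respiratory chain they serve and the cytosolic ribosome. Of 79 nuclear subunits of oxidative phosphorylation 77 were called lower, with a median of -2.53 (Cox7a1 lowest at -3.94 ± 0.47, Cox6a1 highest at 0.09 ± 0.13). The 13 mitochondrially encoded mRNAs were all called lower, with a median of -3.04. Of 78 tested cytosolic ribosomal protein genes 72 were called higher, with a median of 0.70 (Rpl36 lowest at -0.17 ± 0.10, Rpl3 highest at 1.70 ± 0.12). On the total count scale the medians kept this order, at -1.52, -2.09 and 1.78, with the members at -0.22.

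Ratios within a library do not depend on scaling. Per 100 CPM of nuclear oxidative phosphorylation subunits, the members stood at 7.27, 7.60 and 8.28 in sham (lowest, median, highest) and at 10.9, 22.0 and 25.3 in the IZ. Per 100 CPM of cytosolic ribosomal proteins they stood at 35.2, 39.9 and 42.7 in sham and at 8.37, 9.09 and 18.0 in the IZ. The groups were apart in both ratios, and IZ replicate 1 was the library nearest to sham in each. Mitochondrially encoded mRNA amounted to 36.0, 49.1 and 71.7 CPM per CPM of the members in sham and to 8.32, 10.3 and 42.0 in the IZ. There the groups overlapped through replicate 1 alone, and the other 8 IZ libraries ran from 8.32 to 14.0.

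**Figure D5:**
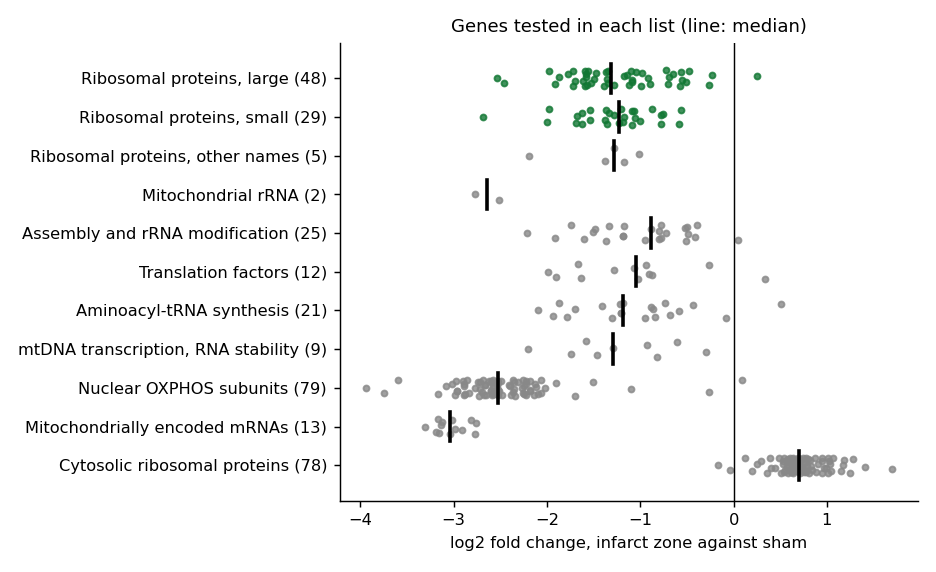
The log2 fold change (IZ against sham, TMM scale) of each tested gene is plotted by list, with the number of genes in parentheses and a line at the median, and the members in green. The members' medians are -1.31 and -1.23. They lie above those of mitochondrially encoded mRNAs (-3.04) and nuclear OXPHOS (oxidative phosphorylation) subunits (-2.53), and below that of cytosolic ribosomal proteins (0.70). Scaled by total counts alone, 16 of the members were called higher, beside 9176 of all 12301 genes tested.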

How the data were processed

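RNA of 8 sham left ventricles and 9 infarct zones was measured by 3′ end sequencing. The authors removed PCR duplicates by molecular identifiers, trimmed reads with Cutadapt and counted them per gene with HTSeq on mm10, and the submitters' processing notes also name bcl2fastq, Bowtie2 and DESeq2. The deposited values are raw counts per gene, with no normalization. The annotation release and how multi-mapped reads were treated are not given in the sources used here. The strand setting is not given there either, and some merged groups carry antisense names. Gene identifiers were joined to a GRCm38 annotation, where 31521 of 31647 matched, and 35 merged groups stayed unnamed but in the library sizes.

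Counts were tested with edgeR 4.0.16 (R 4.3.3): filterByExpr, TMM factors (0.616 to 1.53), two-sided quasi-likelihood F-test, no covariates, Benjamini-Hochberg adjustment over all 12301 features tested, threshold 0.05. A second fit used the summed counts of the members as library size. The p-values set the difference between the groups against the spread between mice within the groups. Total counts, 1237675 to 4738307 per library, limit the precision of low genes: the members had a median of 107 counts per library. All pairs of libraries differed beyond sampling (chi-square per degree of freedom 2.41 to 252). The final 500 bases of every member were searched against all transcripts (BLAST 2.17.0), and matches over 200 bases or more with 95% identity counted as near-identical. Python 3.11.15 with pandas 2.3.3, NumPy 2.4.6, SciPy 1.17.1 and Matplotlib 3.10.9 served for summaries and plots. The test was run on simulated data of 12301 genes. It called 76.5% of 200 changed genes (median fitted log2 fold changes 0.988 and -0.985), and 6.71% of its calls were unchanged genes. Far more genes were called in the real data, so this run could not check the scaling between libraries.

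The members, lists and naming rule were chosen with earlier results of these data known. Members named were the 8 lowest and 8 highest fold changes, the 4 most abundant in sham, those not called or not tested, the 5 at each end of the second fit and 13 chosen by role. Alternatives were DESeq2 size factors, upper quartile and total count scaling, DESeq2 1.42.0 with its Wald test, no filter, a mean of at least 50 counts, removal of mitochondrially encoded features, the replicate block, each library left out in turn, subunits sorted by structure, a test of the members against their own median and, added after seeing the data, near-identical copies added to members. The labels give no batch.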

Additional observations from a re-analysis of the deposited data

Results flagged for a closer look

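In each group the highest or lowest library was set against the others by Dixon's test at 95%, which chance passes in about 1 of 20 groups. Of 66 groups tested, 15 passed, and in 12 of these the library was IZ replicate 1. Its members summed to 3693 CPM against 2504 to 3040 CPM in the other IZ libraries. Per 100 CPM of nuclear oxidative phosphorylation subunits its members stood at 10.9 (others 19.4 to 25.3), and per 100 CPM of cytosolic ribosomal proteins at 18.0 (others 8.37 to 9.77). Among single members it was high in Mrpl42 (117 CPM, others up to 69.6), Mrpl55 (57.8, up to 32.7), Mrps9 (48.5, up to 26.1), Mrps36 (30.2, up to 15.4), Mrpl44 (28.4, up to 16.4), Mrpl51 (93.0, up to 72.0), Mrpl12 (118, up to 73.0), Mrpl30 (137, up to 104) and Mrpl3 (51.0, up to 30.4). The summed cardiomyocyte markers of this library, 31845 CPM, lay between the other IZ libraries and sham, and their part in these values was not tested.

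The remaining 3 were single values: Mrpl43 in sham replicate 4 (74.0 CPM, others 45.9 to 56.9), Mrpl24 in sham replicate 5 (61.6 CPM, others 80.1 to 94.8) and Mrpl57 in IZ replicate 7 (18.8 CPM, others 29.5 to 40.2).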

How the results depend on the processing

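The number of members called lower stayed between 68 and 76 under all alternatives but total counts alone, and their median between -1.37 and -1.17. The 68 came from the filter on a mean of at least 50 counts, under which only 70 members were tested. Scaled by total counts alone, 34 members were called lower and 16 higher, and the median was -0.22 (large subunit -0.24, small subunit -0.17). Of 84 other tested genes of mitochondrial translation, nuclear factors included, 24 were then called lower and 20 higher, with a median of 0.02. The named members that turned from below to above 0 were Mrps18b 0.01, Mrpl10 0.17, Mrpl33 0.49, Mrpl43 0.50, Mrps18c 0.51, Mrpl24 0.52, Mrpl40 0.56, Mrpl57 0.59, Mrpl20 0.80 and Mrpl17 0.84, while Mrpl52 moved from 0.25 to 1.33. On that scale 85.7% of all calls were higher, against 52.3%. Upper quartile scaling called 1 member higher, and leaving out each library in turn called 0 to 1 higher. That member was Mrpl52, without sham replicate 8 or IZ replicate 1, and the cause was not tested. Over 26 alternatives Mrpl17 was called in 14, Mrpl57 in 16, and Mrpl20 and Mrpl52 in 4 each. These counts take calls in either direction and include total count scaling, where each of these genes was called higher.

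Replicate numbers did not pair the samples: deviations of same-numbered libraries correlated at -0.232 to 0.133, and 1 of 8 numbers matched itself best. With the replicate block, which leaves out IZ replicate 9, 73 members were called lower and 0 higher by edgeR at a median of -1.29, and relative to the summed members 20 were lower and 20 higher. In the second fit, leaving out each library gave 21 to 24 lower and 19 to 23 higher. Low counts limit single genes such as Mrps22, with 5 to 68 counts per library.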
